A study of Mus musculus with 12 samples.

Results

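The large olfactory receptor gene clusters of the mouse are described here through the H3K9me3 regions that lie in them. The members are the regions of the authors' deposited table whose start lies, on build mm10, in 1 of 4 intervals. On chromosome 2, the span of 36 to 37.5 Mb is called the proximal cluster and that of 85 to 90.5 Mb the distal cluster. The other intervals are 102 to 109 Mb of chromosome 7 and 37.6 to 40.2 Mb of chromosome 9. The rule found 630 of the 68291 regions. The proximal chromosome 2 cluster held 121, the distal chromosome 2 cluster 181, the chromosome 7 cluster 226 and the chromosome 9 cluster 102. The rule uses position alone, so neither the signal nor the genotype difference of a region chose it.

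The study profiled H3K9me3, trimethylated lysine 9 of histone H3, by chromatin immunoprecipitation and sequencing (ChIP-seq) in mouse embryonic stem cells with or without Tex19.1, a gene of pluripotent and germ cells. The groups were Tex19.1+/- (heterozygous) and Tex19.1-/- cells, both derived from E14Tg2a, an embryonic stem cell line of 129/Ola background, and used at passages 12 to 20. Each genotype had 3 immunoprecipitated and 3 input libraries, 12 in all, grouped by title because the genotype field contradicts the title in 6 of them. Nothing in the labels says whether the 3 came from separate cultures or how many clones stand behind a genotype. The deposited table gives 1 genotype comparison per region and 0 columns of single libraries, so library depth and replicate spread were not analysed here. Which genotype was the reference is not given in the sources used here, so genotype differences are described by their sign.

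Olfactory receptors are G protein-coupled receptors that detect odorants, and their genes form the largest gene family of the mouse. The genes are short, usually with the whole coding sequence in a single exon, and lie in dense clusters with many pseudogenes. An olfactory neuron expresses a single receptor gene from a single allele. In those neurons the silent receptor genes are known to be packed in heterochromatin that carries H3K9me3, and the factors Lhx2, Ldb1 and Ebf act at receptor promoters and enhancers. Class I receptors, the family also found in fish, lie almost entirely in the chromosome 7 cluster, and class II receptors fill the others. H3K9me3 is otherwise best known from pericentromeric repeats, silenced retrotransposons and zinc finger gene clusters. Embryonic stem cells are not olfactory cells, so the values below describe the mark in cells of another kind.

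The 4 intervals held 695 of the 1428 olfactory receptor genes and pseudogenes of the RefSeq table (assembly GRCm38.p6), or 48.7%. The proximal chromosome 2 cluster had 37 of them, from Olfr334-ps1 to Olfr368, and the distal one had 293, from Olfr987 to Olfr1274. The chromosome 7 cluster had 238, from Olfr543 to Olfr519, and the chromosome 9 cluster had 127, from Olfr160 to Olfr986. Of the 695, 538 were listed as protein-coding and 156 as pseudogenes. The intervals also held 99 other protein-coding genes, 71 of them on chromosome 7.

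Windows at annotated receptor starts, called promoter windows here, are shown first because few of them met the mark. Windows of 300 bases, from 250 before to 50 after the annotated start, were present in the RefSeq promoter table for 462 of the 695 genes, as 464 windows. A region overlapped 8 of these windows (1.72%), against 897 of all 32851 promoter windows (2.73%). The windows below are those of Olfr1155 (distal chromosome 2), Olfr514 and Olfr698 (chromosome 7) and Olfr976 and Olfr919 (chromosome 9), up to 2 per cluster by signal. The window of Olfr695, the receptor gene nearest to a region called below, is given beside them. They are written 5′ to 3′ on the gene's strand, which is the minus strand for all 6, with the bases inside an H3K9me3 region in capitals.
Olfr1155, chr2:87943577-87943876, minus strand: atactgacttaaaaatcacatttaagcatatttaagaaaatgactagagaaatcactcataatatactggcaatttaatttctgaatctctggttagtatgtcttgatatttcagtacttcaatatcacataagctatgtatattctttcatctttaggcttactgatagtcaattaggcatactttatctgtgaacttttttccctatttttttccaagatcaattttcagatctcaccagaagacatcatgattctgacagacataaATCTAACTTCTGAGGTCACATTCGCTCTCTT
Olfr514, chr7:108825948-108826247, minus strand: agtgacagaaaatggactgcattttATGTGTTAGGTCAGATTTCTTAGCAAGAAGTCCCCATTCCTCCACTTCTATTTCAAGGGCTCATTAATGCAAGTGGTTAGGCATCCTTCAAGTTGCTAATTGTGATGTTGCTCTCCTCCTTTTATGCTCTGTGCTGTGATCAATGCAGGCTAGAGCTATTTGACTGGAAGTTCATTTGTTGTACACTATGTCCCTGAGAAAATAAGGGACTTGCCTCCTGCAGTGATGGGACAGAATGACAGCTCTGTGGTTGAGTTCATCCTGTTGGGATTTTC
Olfr698, chr7:106753337-106753636, minus strand: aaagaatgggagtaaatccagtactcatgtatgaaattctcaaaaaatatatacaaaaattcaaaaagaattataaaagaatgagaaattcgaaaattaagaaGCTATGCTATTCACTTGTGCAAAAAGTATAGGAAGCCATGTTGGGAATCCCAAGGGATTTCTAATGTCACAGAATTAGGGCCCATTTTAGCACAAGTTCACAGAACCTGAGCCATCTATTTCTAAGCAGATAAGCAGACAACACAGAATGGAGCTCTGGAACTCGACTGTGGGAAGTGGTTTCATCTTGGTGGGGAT
Olfr976, chr9:39960995-39961294, minus strand: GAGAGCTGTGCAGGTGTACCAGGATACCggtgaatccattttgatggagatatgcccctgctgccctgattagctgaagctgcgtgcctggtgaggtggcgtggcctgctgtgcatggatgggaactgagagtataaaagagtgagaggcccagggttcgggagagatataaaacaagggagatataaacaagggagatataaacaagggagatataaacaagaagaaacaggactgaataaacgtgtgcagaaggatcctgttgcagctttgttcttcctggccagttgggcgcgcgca
Olfr919, chr9:38698327-38698626, minus strand: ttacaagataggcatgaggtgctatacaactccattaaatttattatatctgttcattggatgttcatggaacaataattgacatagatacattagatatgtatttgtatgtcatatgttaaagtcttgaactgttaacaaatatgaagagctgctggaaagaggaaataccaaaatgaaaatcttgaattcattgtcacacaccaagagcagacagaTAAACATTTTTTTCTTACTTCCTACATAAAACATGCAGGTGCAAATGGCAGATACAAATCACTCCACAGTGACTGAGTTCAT
Olfr695, chr7:106716296-106716595, minus strand: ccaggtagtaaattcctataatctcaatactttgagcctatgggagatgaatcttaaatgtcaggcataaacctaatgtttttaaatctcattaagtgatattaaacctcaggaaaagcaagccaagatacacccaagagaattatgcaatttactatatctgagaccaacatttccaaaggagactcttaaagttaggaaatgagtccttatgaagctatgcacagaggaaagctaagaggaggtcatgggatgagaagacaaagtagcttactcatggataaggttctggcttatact
In Olfr514 and Olfr698 the capitals run through the annotated start into the gene, covering 275 and 197 of the 300 bases. In Olfr1155 and Olfr919 the region reached 31 and 82 bases from the gene side. In Olfr976 it reached 28 bases at the far upstream end and left the start free. The window of Olfr695 held no marked base. In Olfr1155, Olfr514, Olfr698 and Olfr919 the annotated start reads ATG, a start codon, so the window may not hold the transcription start. How many of the 464 windows begin the gene at a start codon was not counted. No window of the proximal chromosome 2 cluster was overlapped, out of 27.

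The same windows were searched on both strands for TAATTA, the core bound by homeodomain factors such as Lhx2, and CCCNNGGG, the core bound by Ebf factors. TAATTA stood in 88 of the 464 receptor windows (19.0%) and in 5.29% of all promoter windows. CCCNNGGG stood in 12 receptor windows (2.59%) and in 13.7% of all windows. The receptor windows had a median GC content of 34.3%, against 52.7% for all windows, so the AT-only motif and the GC-rich motif differ in how often they can occur. None of the 8 overlapped windows held TAATTA, and 1 of them, that of Olfr698, held CCCNNGGG. The Olfr695 window held neither. These matches describe letters and say nothing about binding. Where an annotated start is a start codon, the window may also miss the promoter.

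H3K9me3 regions were densest in the proximal chromosome 2 cluster and near the chromosomal level in the chromosome 7 cluster. There were 80.7 regions per Mb in the proximal chromosome 2 cluster, 32.9 in the distal one, 32.3 on chromosome 7 and 39.2 on chromosome 9. The rest of each chromosome, which holds other receptor genes too, had 20.5 per Mb on chromosome 2, 29.6 on chromosome 7 and 28.6 on chromosome 9. The density was thus 3.94 times that of the rest of the chromosome in the proximal chromosome 2 cluster (95% interval 3.26 to 4.73, exact binomial, counting error only). The ratio was 1.61 in the distal cluster (1.38 to 1.87), 1.09 on chromosome 7 (0.950 to 1.25) and 1.37 on chromosome 9 (1.11 to 1.67). The interval for chromosome 7 includes a ratio of 1, and those of the other 3 do not. Neighbouring regions are not independent, so these intervals are narrower than the true uncertainty. The distal chromosome 2 and chromosome 7 clusters were nearly equal in density itself, at 32.9 and 32.3 per Mb, against 25.7 over all regions. Their ratios differ mainly because the rest of chromosome 7 was denser than that of chromosome 2, at 29.6 against 20.5 per Mb.

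Covered length gave the same order at the top. Regions covered 10.1% of the proximal chromosome 2 cluster, 3.77% of the distal one, 3.97% of the chromosome 7 cluster and 4.44% of the chromosome 9 cluster. The rest of chromosomes 2, 7 and 9 had 2.37%, 3.64% and 3.48% covered. Signal within regions differed little. The authors' deposited table gives an average log2 CPM (reads counted in the region, scaled by a total of the library) per region. Over all 68291 regions the CPM summed to 1.08e+06, so that total was close to the reads inside the regions. The CPM summed over regions per kilobase of region was 13.9, 12.5, 13.2 and 14.0 in the 4 clusters, in the order named. The same quantity was 12.9, 13.0 and 13.4 in the rest of the 3 chromosomes. The proximal cluster thus had more regions per Mb than its chromosome, at 1.08 times the signal per kilobase of region.

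Single regions were slightly wider in the clusters than outside them. The median width was 899 bp, 809 bp, 791.5 bp and 787 bp in the 4 clusters, against 769 bp, 760 bp and 765 bp in the rest of chromosomes 2, 7 and 9. The median log2 CPM in the authors' deposited table was 3.49, 3.29, 3.26 and 3.23, against 3.08 over all regions. Regions of at least 5 kb were few, 10 of 630 (1.59%) against 2.38% of all regions. The strongest member lay in the proximal chromosome 2 cluster at chr2:36353680-36361212, 15566 bp from Olfr338, with 133 CPM in the authors' deposited table. The strongest on chromosome 7, at chr7:103072478-103080194, was 5326 bp from Olfr584 and had 130 CPM in the same deposited table. The strongest on chromosome 9, at chr9:38637039-38644364, had 120 CPM there. In the distal chromosome 2 cluster it was chr2:86620418-86625306, 12849 bp from the pseudogene Olfr1083-ps, with 94.1 CPM by the authors' deposited table. These 4 regions all lay outside receptor gene bodies.

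The density was not unique to the proximal cluster when seen in windows of 0.5 Mb. Its 3 windows held 36 to 48 regions. In the rest of chromosome 2 the median window held 9 and the fullest 39, and 6 of 345 windows held 30 or more. On chromosomes 7 and 9, windows outside the clusters reached 96 and 68 regions. Some windows outside the clusters hold receptor genes. That from 19 Mb of chromosome 9 had 17 receptor genes and 50 regions, and that from 111.5 Mb of chromosome 2 had 19 and 21. The windows of the other clusters ranged from 8 to 27 (distal chromosome 2), from 0 to 41 (chromosome 7) and from 12 to 31 (chromosome 9). A window counts for a cluster when its middle lies in the interval. On chromosome 9 the cluster windows thus begin at 37.5 Mb, and the window from 40 Mb, with 8 receptor genes, counts as outside. At the distal edge of the proximal cluster, the last 0.5 Mb inside held 36 regions and the next 0.5 Mb held 1. Between its first and last receptor gene, the density was 105 per Mb and 13.4% of bases were covered. The 11 members outside that span made 24.3 per Mb.

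**Figure D1:**
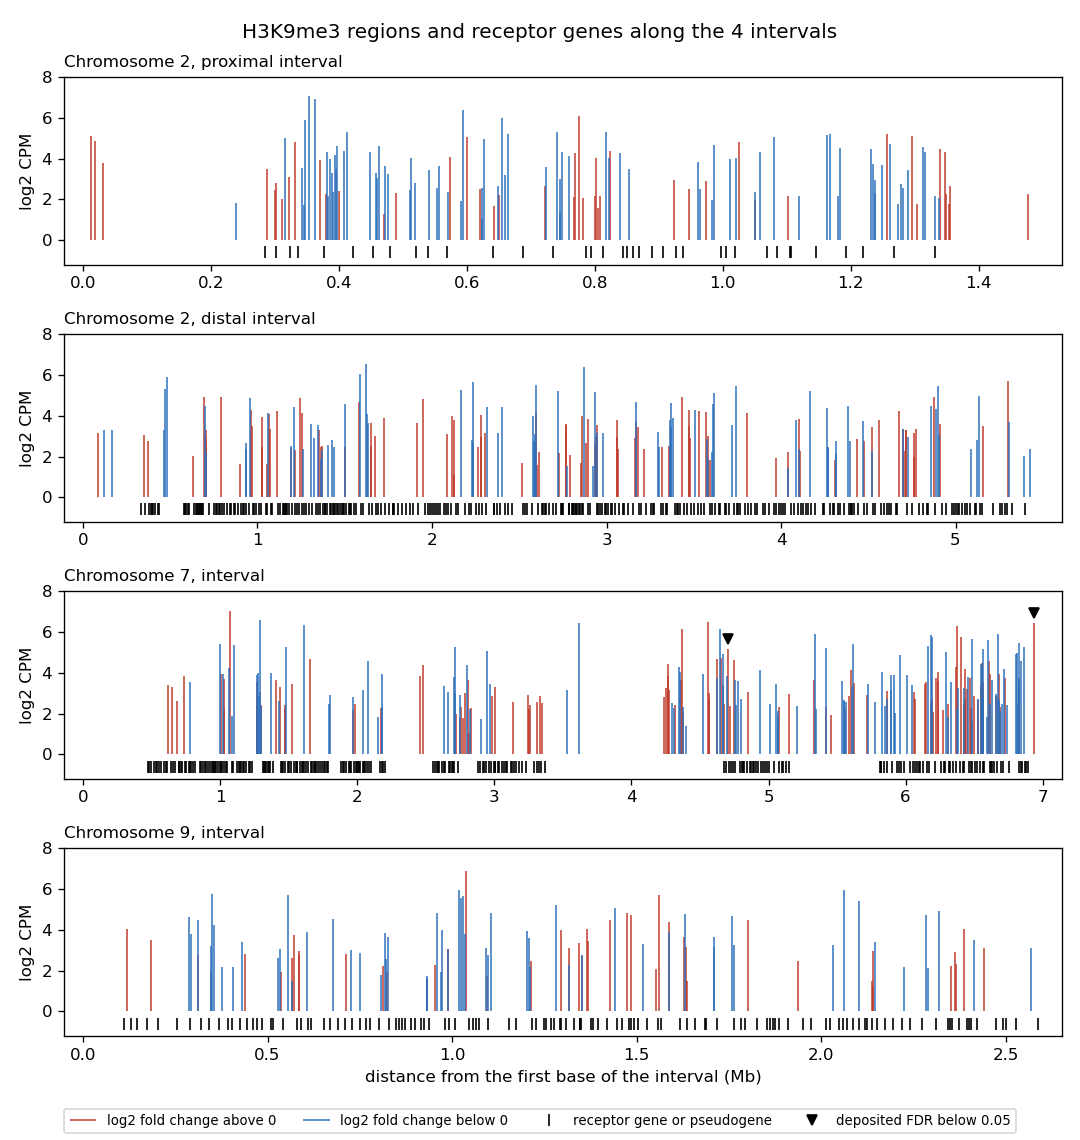
Each vertical line is an H3K9me3 region, drawn at its distance (Mb) from the first base of its interval, with the average log2 CPM as its height and the sign of its log2 fold change as its colour. Ticks below 0 mark receptor genes and pseudogenes, and triangles mark the 2 regions with a deposited FDR below 0.05, both in the chromosome 7 interval. Regions crowd the proximal chromosome 2 interval, at 80.7 per Mb, and the last part of the chromosome 7 interval.

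The chromosome 7 cluster was uneven along its length. Splitting it where neighbouring receptor genes are more than 150 kb apart gave 4 stretches, a division made after the data were seen. The first ran from Olfr543 to Olfr650-ps1 with 116 receptor genes, of which 111 of the 114 with a family name in the annotation were class I. It had 44 regions, 25.4 per Mb, and 3.59% of its bases were covered. The next, from Olfr651 to Olfr692, had 42 receptor genes, and all 38 with a family name were class I. It had 28 regions, 34.3 per Mb, and 2.70% of its bases were covered. The stretch after it, from Olfr693 to Olfr716, had 28 receptor genes, with 0 of 25 in class I, and 16 regions or 34.0 per Mb. Regions covered 3.16% of that stretch. The last, from Olfr467 to Olfr519, had 52 receptor genes, with 2 of 48 in class I. It carried 85 regions, 78.7 per Mb, and 9.53% of its bases were covered. Bounded in the same way by its first and last receptor gene, the proximal chromosome 2 cluster, which held no receptor assigned to class I, had 105 regions per Mb and 13.4% of bases covered. The distal chromosome 2 cluster, with 1 of 258 in class I, had 34.9 per Mb and 4.03% covered. The chromosome 9 cluster, with 1 of 114 in class I, had 41.2 per Mb and 4.66% covered. Density thus varied widely among parts made up almost wholly of class II receptors.

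Within every cluster, receptor gene bodies carried less of the mark than the DNA between them. Between the first and last receptor gene of the 4 clusters together, regions covered 1.56% of receptor gene bodies, 2.96% of the sequence within 5 kb of a receptor gene and 6.81% of the sequence farther away. In the proximal chromosome 2 cluster these shares were 1.96%, 6.53% and 17.9%. In the distal cluster they were 0.847%, 2.20% and 6.85%. On chromosome 7 they were 2.19%, 2.88% and 5.14%, and on chromosome 9 they were 1.75%, 3.74% and 6.08%. The order was the same in all 4. The bodies of protein-coding receptors and of receptor pseudogenes were covered to 1.54% and 1.70% over the 4 clusters. The clusters differed in this. In the proximal chromosome 2 cluster the shares were 0.931% and 8.84%, the latter from 0.604 kb of marked sequence, and on chromosome 9 they were 2.14% and 0%.

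**Figure D2:**
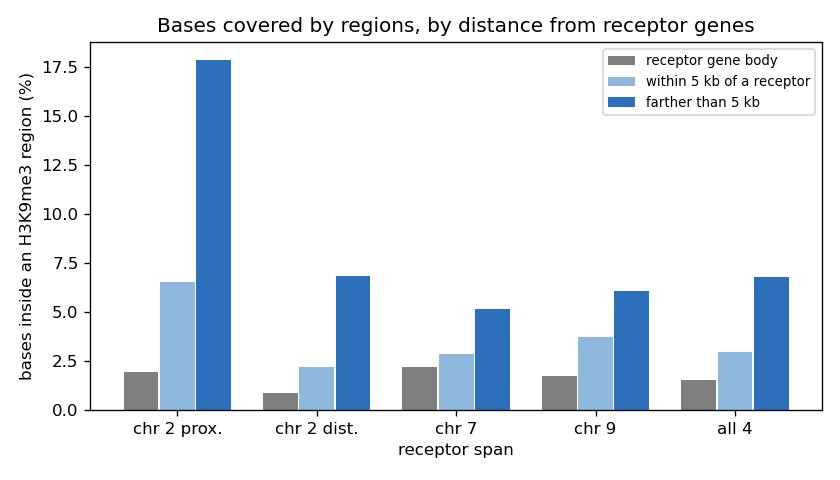
Bars give the percentage of bases inside an H3K9me3 region for receptor gene bodies, for sequence within 5 kb of a receptor gene and for sequence farther away, between the first and last receptor gene of each cluster and in all 4 together. The share grows with distance from receptor genes in each cluster, to 17.9% in the proximal chromosome 2 cluster. The table has no single libraries, so the bars have no error.

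By genes, 22 of the 695 receptor genes (3.17%) had a region in their body and 169 (24.3%) had one in the body or within 5 kb. The second count was 21 of 37 genes (56.8%) in the proximal chromosome 2 cluster, 59 of 293 (20.1%) in the distal one, 51 of 238 (21.4%) on chromosome 7 and 38 of 127 (29.9%) on chromosome 9. It was 115 of 538 protein-coding receptors (21.4%) and 53 of 156 pseudogenes (34.0%). On chromosome 7 it was 21 of 151 class I receptors (13.9%) and 26 of 74 class II receptors (35.1%). Of receptor genes elsewhere in the genome, 52 of 733 (7.09%) had a region in the body and 221 (30.2%) had one within 5 kb. Vomeronasal receptor genes, which encode pheromone receptors, had 89 of 645 (13.8%) and 245 (38.0%). That list joins Vmn1r and Vmn2r genes. Its median body was 936 bp, against 945 bp for olfactory receptors, but the spread of lengths was not compared, so the counts are not matched for length. Of the other protein-coding genes in the rest of the 3 chromosomes, 1082 of 4080 (26.5%) had a region in the body, but their bodies were longer, with a median of 18349 bp. Receptor genes of one cluster share their neighbourhood, so these are counts and not replicates.

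Coverage dipped around annotated receptor starts, some of which are start codons, as seen above. For the 462 receptors with a promoter window, the kilobase just before the annotated start was covered to 0.328% and the kilobase after it to 1.86%. The mean within 3 kb of the start was 1.28%, and the mean from 10 to 20 kb on either side was 5.14%. For the 482 receptors elsewhere in the genome the same 4 values were 0.911%, 2.22%, 1.89% and 7.69%. For 3669 other protein-coding genes in the rest of the 3 chromosomes they were 1.54%, 1.42%, 1.68% and 2.86%. Both receptor sets had a lower value before the start and a higher value far from it than the other genes.

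**Figure D3:**
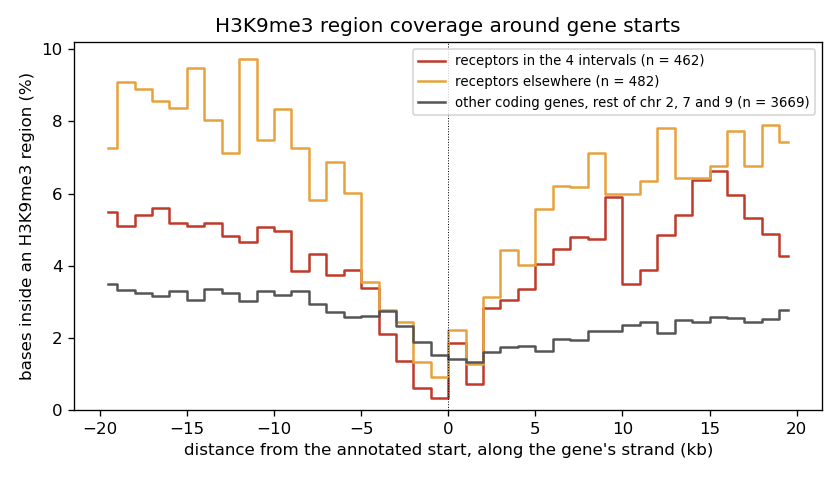
Lines give the percentage of bases inside an H3K9me3 region in bins of 1 kb, from 20 kb before to 20 kb after annotated gene starts, along the gene's strand. Receptors in the 4 clusters (462 genes) and elsewhere (482 genes) dip to 0.328% and 0.911% in the bin before the start and are higher away from it, while the line for 3669 other protein-coding genes is flatter.

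The spacing of receptor genes went with the same pattern. Between neighbouring receptor genes there were 689 gaps, with a median length of 13.2 kb. A region lay in 25 of the 239 gaps under 10 kb, which were covered to 1.85%. It lay in 90 of the 250 gaps of 10 to 20 kb, covered to 3.99%, and in 122 of the 179 gaps of 20 to 50 kb, covered to 7.55%. All 21 longer gaps held a region, and they were covered to 4.25%. In the proximal chromosome 2 cluster the 14 gaps of 20 to 50 kb were covered to 16.8%. Longer gaps can hold more regions by length alone, but the covered share is per base. Receptor genes are similar in sequence, and how reads with several matches were handled is not given in the sources used here. The part of such reads, or of repeats between receptor genes, in these coverages was not tested.

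The 26 regions over a receptor gene body were weaker and shorter than the other members, with a median log2 CPM of 2.80 and a median width of 643.5 bp in the authors' deposited table. Their signal ran from 2.84 to 42.6 CPM, with a median of 6.98. The strongest of them lay over the pseudogene Olfr1527-ps1 (chr7:102997641-103001067) where the authors' deposited table lists 42.6 CPM and a log2 fold change of -0.06. The next lay over Olfr149 (chr9:39700902-39702888) with 42.2 CPM and -0.11. Both genes were picked with their values in view. The 186 members within 5 kb of a receptor had a median log2 CPM of 3.29, and the 393 farther away and outside other coding genes one of 3.31.

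Between the genotypes, few members differed. In the authors' deposited table, 2 of the 630 members had an FDR below 0.05 (0.317%), against 0.281% of all 68291 regions, a share near the background. Both had positive log2 fold changes, for which the share over the table is 0.192%, and both lay on chromosome 7. No member had a negative value at that threshold, where the share over the table is 0.0893%. Members with an unadjusted p below 0.05 in the authors' deposited table numbered 18 (2.86%), against 4.74% of all regions and 3.40% of the rest of the 3 chromosomes. Of these, 4 were positive (0.635%, against 2.7% of all regions) and 14 negative (2.22%, against 2.05%). By cluster there were 5 of 121 in the proximal chromosome 2 cluster, 1 of 181 in the distal one, 9 of 226 on chromosome 7 and 3 of 102 on chromosome 9. In the rest of the 3 chromosomes there were 372 of 10927, of which 132 were positive and 240 negative. Negative values outnumbered positive ones in the rest of chromosome 7 (114 and 30) and of chromosome 9 (78 and 31). They did not in the rest of chromosome 2 (48 and 71), nor over all regions. In the proximal chromosome 2 cluster 4 of the 5 were negative, as was the 1 in the distal cluster.

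The 1 called member among the receptor genes lay at chr7:106705568-106709583, 4149 bp beyond the 3′ end of Olfr695, a class II gene whose promoter window is printed above. The authors' deposited table gives it a log2 fold change of 0.72, a signal of 36.2 CPM and an FDR of 0.00628, and the standard error derived from its p-value was 0.16. The other 14 regions within 100 kb gave 5 positive and 9 negative values, from -0.66 to 0.30, with a smallest FDR of 0.343. The nearest regions on either side were at -0.21 and 0.30 in the authors' deposited table, both at FDR 1. No other region within that distance was called. Under a Holm adjustment of the deposited p-values over the whole table, its adjusted p was 0.533.

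The other called member, at chr7:108935352-108942057, overlapped Eif3f, which encodes a subunit of translation initiation factor eIF3. It lay 40947 bp past Olfr519, the last receptor gene of the interval, so it belongs to the interval but not to the receptor genes. For it the authors' deposited table lists a log2 fold change of 0.52, a signal of 86.3 CPM and an FDR of 0.000468, and the derived standard error was 0.10. The 3 other regions within 100 kb had values from -0.22 to -0.04, all negative. Its Holm-adjusted p was 0.0210.

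The remaining 628 members ranged in the authors' deposited table from -1.12 to 1.31, with a smallest FDR of 0.343. That FDR belonged to a region over Gm1966, a gene in the gap before the Olfr693 to Olfr716 stretch, at chr7:106643553-106647653. Its value in the authors' deposited table was -0.33 (derived standard error 0.11). All 26 regions over a receptor body had an FDR of 1 there, with values from -0.55 to 0.57. The 8 regions over receptor promoter windows also had an FDR of 1. The authors' deposited table puts the log2 fold change at -0.34 for Olfr1155, -0.24 for Olfr514, -0.11 for Olfr698, 0.51 for Olfr976 and -0.31 for Olfr919. Their signals there were 9.01, 13.3, 12.7, 7.43 and 6.91 CPM, and differences of this size were not detectable at that depth.

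Precision set what could be called. An error could be derived for 156 of the 630 members, those whose p-value was small enough. At a log2 CPM between 2 and 3 its median was 0.48, from 52 of 208 members. It was 0.31 between 3 and 4 (31 of 180), 0.21 between 4 and 5 (31 of 110), 0.15 between 5 and 6 (23 of 55) and 0.10 between 6 and 7 (7 of 16). For comparison, the smallest called difference anywhere in the authors' deposited table was 1.51 between 2 and 3, 0.68 between 4 and 5 and 0.33 between 6 and 7. A difference of 0.5 was therefore not detectable at most members. Within 0.5 of 0 lay 549 members (87.1%), against 82.9% of all regions.

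**Figure D4:**
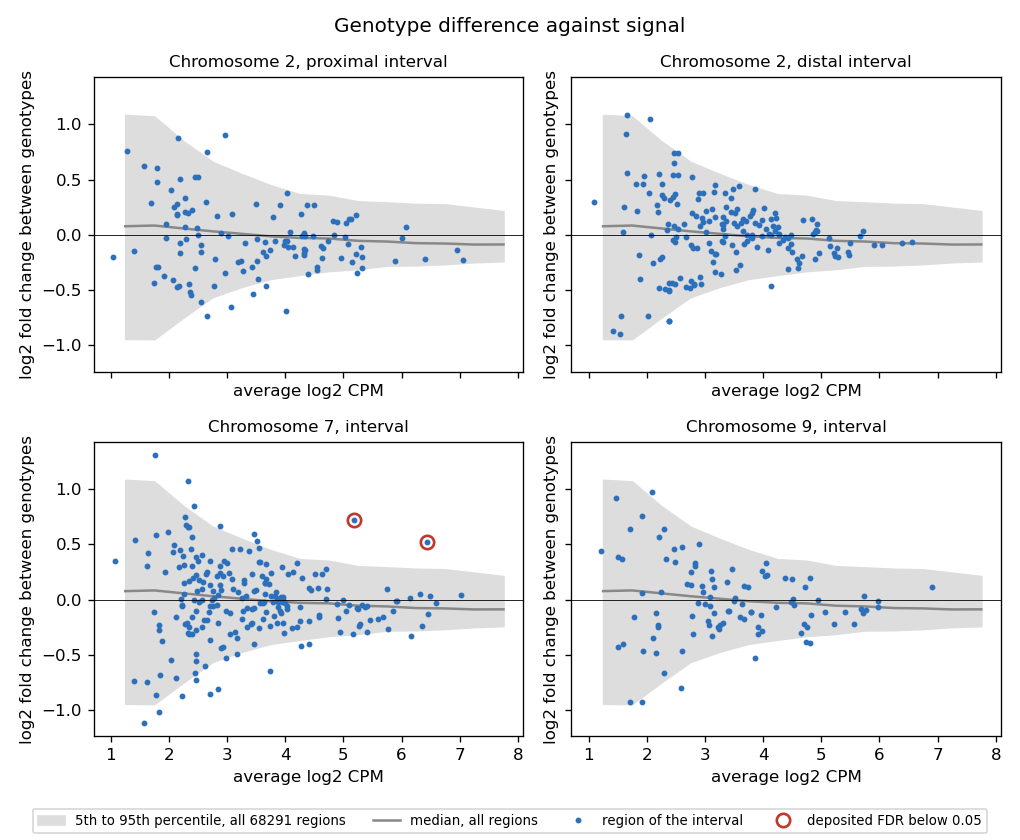
Each point is a member region, with its average log2 CPM on the x axis and its log2 fold change between genotypes on the y axis, 1 panel per cluster. The grey band is the 5th to 95th percentile of all 68291 regions at that signal and the grey line their median. Most points lie inside the band, and the 2 circled regions with a deposited FDR below 0.05 are in the chromosome 7 panel, at 0.72 and 0.52.

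As groups, the distal chromosome 2, chromosome 7 and chromosome 9 clusters had medians within 0.05 of the rest of their chromosomes, and the proximal chromosome 2 cluster lay 0.08 below. The median log2 fold change in the authors' deposited table was -0.07 in the proximal chromosome 2 cluster, 0.01 in the distal one, -0.02 on chromosome 7 and -0.05 on chromosome 9. The rest of the chromosomes had 0.0012 (chromosome 2), -0.06 (chromosome 7) and -0.04 (chromosome 9), and all regions had -0.0058. The differences from the rest of the chromosome were -0.08, 0.01, 0.04 and -0.02. For the proximal cluster it stayed between -0.10 and -0.07 under 5 other settings, and for the distal chromosome 2 and chromosome 9 clusters it changed sign with the setting. Positive values made up 44 of 121 members (36.4%), 95 of 181 (52.5%), 108 of 226 (47.8%) and 43 of 102 (42.2%). The rest of the chromosomes had 50.1%, 41.8% and 45.0%, and the whole deposited table had 49.2%. These are descriptions of 1 table, because regions are not replicates of a genotype.

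Of the 4 clusters, the proximal chromosome 2 cluster stood furthest toward negative values. Between Olfr334-ps1 and Olfr368, 35 of 110 regions (31.8%) had positive values and the median in the authors' deposited table was -0.10, while 9 of the 11 members outside that span were positive. Of the 43 regions of the span with a log2 CPM of at least 4, 10 were positive (23.3%), against 360 of 880 such regions (40.9%) in the rest of chromosome 2. Over the whole interval 14 of 47 were positive (29.8%). Low shares were not particular to this cluster, with 31.0% in the rest of chromosome 7 and 34.1% in that of chromosome 9. The distal chromosome 2, chromosome 7 and chromosome 9 clusters had 39.2%, 33.9% and 34.5%. In the authors' deposited table the strongest member, near Olfr338, stood at -0.22 (derived standard error 0.08, FDR 0.516). Its neighbour at chr2:36362868-36368169, with 123 CPM, had -0.14 there. The region at chr2:36594585-36599173, 25056 bp from Olfr344, had -0.22 with an FDR of 0.951. The most negative strong region, at chr2:36512396-36513992 near Olfr342, had -0.69 (derived standard error 0.25) and an FDR of 0.471. The most positive strong region, at chr2:36801647-36803391 near Olfr50, had 0.38 (FDR 1). None of these passed the threshold.

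Regions with a log2 CPM of at least 4 in the other clusters ranged from -0.46 to 0.24 (distal chromosome 2), from -0.42 to 0.72 (chromosome 7) and from -0.39 to 0.33 (chromosome 9) in the authors' deposited table. The most negative were chr2:86059429-86061153 (-0.46), chr7:106348171-106349436 (-0.42) and chr9:38705745-38707060 (-0.39), none of them called. The regions of highest signal lay nearer to 0. On chromosome 7 the regions at chr7:103072478-103080194 (130 CPM) and chr7:103291481-103299242 (96.6 CPM), near Olfr584 and Olfr596, were listed by the authors at log2 fold changes of 0.05 and -0.03 in their deposited table. In the distal chromosome 2 cluster the regions at chr2:86620418-86625306 and chr2:87870684-87877034 both had -0.07 there. On chromosome 9 the region at chr9:38637039-38644364 had 0.12 (derived standard error 0.09). The chromosome 7 stretches differed in sign without any call besides the region near Olfr695. The stretch from Olfr651 to Olfr692 had a median of 0.17 with 17 of 28 regions positive, but all 3 of its regions with a log2 CPM of at least 4 were negative. The stretch from Olfr693 to Olfr716 had a median of -0.13 with 5 of 16 positive, and the stretch from Olfr467 to Olfr519 had -0.02.

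**Figure D5:**
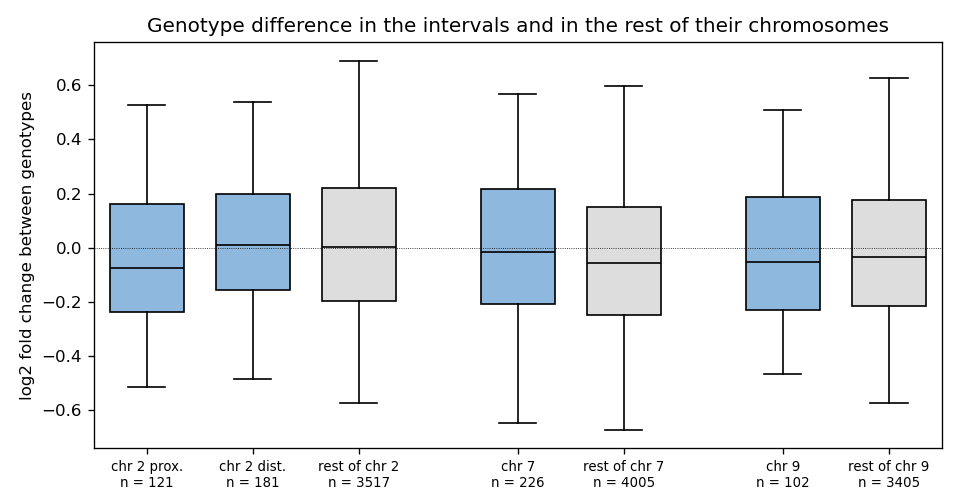
Boxes give the median and quartiles of the log2 fold change between genotypes, and whiskers the 5th and 95th percentiles, for each cluster and for the rest of its chromosome, with the number of regions below. The medians run from -0.07 to 0.01 in the clusters and every box spans 0.

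The other genes inside the chromosome 7 interval had few regions and none called besides Eif3f. The interval surrounds the beta-globin locus, and 0 of its 6 Hbb genes had a region in the body or within 5 kb. Of 13 Trim genes, which encode ubiquitin ligases with roles in innate immunity, 4 had a region. The strongest, over Trim3, is listed in the authors' deposited table at 87.3 CPM, with a log2 fold change of -0.13 and an FDR of 1. Of 2 Nlrp genes, which encode inflammasome-type sensors and oocyte proteins, 1 had a region, over Nlrp14, with 0.35 and an FDR of 1. Of all 99 other protein-coding genes in the intervals, 20 had a region in the body or within 5 kb, with 37 regions. Of these, 20 were positive and 17 negative in the authors' deposited table, and 1 was called (2.70%, against 0.281% of all regions). An unadjusted p below 0.05 was listed for 5 of the 37 (13.5%, against 4.74% of all regions), the called region among them.

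Olfactory receptor genes elsewhere and the genes that act with receptors gave no further call, while regions at vomeronasal receptor genes gave 5. The 302 regions at receptor genes outside the clusters had a median of 0.02 with 0 called by the deposited edgeR FDR and 20 with an unadjusted p below 0.05 (6.62%). Without chromosomes 11 and 16, the median was -0.05 over 212 regions, with 40.6% positive instead of 53.6% and 9 with an unadjusted p below 0.05. The 213 regions at receptor genes inside the clusters had a median of 0.0025. Of them 1 was called (0.469%, against 0.281% of all regions) and 4 had an unadjusted p below 0.05 (1.88%, against 4.74%). Of 451 regions at vomeronasal receptor genes, 5 were called (1.11%, against 0.281% of all regions), 2 positive and 3 negative in the authors' deposited table, and 4 of 449 without chromosomes 11 and 16. Of 25 genes for olfactory signalling and receptor choice, 11 had 40 regions, of which 24 were positive and 16 negative, with 0 called and 7 with an unadjusted p below 0.05 (17.5%, against 4.74% of all regions). The 12 regions at Ebf1 (chromosome 11), Rtp2 and Ncam2 (both chromosome 16) were all positive and made up 5 of the 7. The other 28 had 12 positive values, a median of -0.08 and 2 with an unadjusted p below 0.05. The smallest p of the whole list was at Rtp2, a chaperone that carries receptors to the cell surface, with 0.44 (derived standard error 0.15) and an FDR of 0.318. Ebf1, an activator of receptor genes, came next in the authors' deposited table with 1.05 (derived standard error 0.36, FDR 0.377). Both Rtp2 and Ebf1 lie on the chromosomes left out above. Without these chromosomes the positive share at receptor genes outside the clusters also fell, from 53.6% to 40.6%. Their lean to positive values was thus not particular to olfactory signalling genes, and its cause was not tested.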

How the data were processed

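The deposited table compares the genotypes over 68291 regions. Per the file headers it gives log2 fold change, average log2 CPM, p-value and FDR. CPM are reads scaled by a total of the library, which was close to the reads inside the regions. Per the submitters' processing notes, Bowtie2 2.2.6, HOMER 4.8, bedtools 2.25.0, edgeR and build mm10 were used, with no role or order. How regions were defined is not given in the sources used here, nor is the use of input or of reads with several matches. CPM are relative within a library, so a shift shared by all regions is invisible. With 0 columns of single libraries in it, the planned tests on single libraries were not run and the authors' deposited FDR below 0.05 is the call. It differed from a Benjamini-Hochberg adjustment by at most 3.2e-05.

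A standard error was derived as the absolute log2 fold change over the normal deviate of the p-value, taken as 2-sided, for the 19017 regions whose deviate reached 1, and inherits the authors' assumptions. Genes, widths and distances were joined in Python 3.11.15 with pandas 2.3.3, numpy 2.4.6 and scipy 1.17.1, tested on simulated data. Gene bodies and promoter sequences are RefSeq, GRCm38.p6, the assembly of mm10; exons were not analysed here. Receptor genes are symbols starting with Olfr, or Or and a digit. Class I means a MOR family number up to 42 among the synonyms.

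The named regions are every called member and, per cluster, the 3 of highest signal, the 2 widest, the 2 of smallest p and the 2 most positive and most negative with a log2 CPM of at least 4; a selection is printed, with the strongest region of each list of neighbouring genes and up to 2 overlapped promoters per cluster. Members and lists were chosen with earlier results of these data known, though the rule that picks members uses position alone. The class split, the stretches, the gap lengths and the coverage by distance were added after the data were seen. The pluripotency list had regions at 3 of 10 genes and the fibroblast list at 5 of 10, with 0 called. The alternatives were other call rules, signal and width minimums, other bounds and other gene extensions.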

Additional observations from a re-analysis of the deposited data

How the results depend on the processing

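Over 32 results, 87 of 106 alternative values stayed within the limit set for each and 19 moved. The number of called members was 2 with an FDR below 0.01 or when regions under 1000 bp or under a log2 CPM of 3 were left out of the adjustment, and 1 under the Holm adjustment (the region over Eif3f) or between the first and last receptor genes (the region near Olfr695). With only regions of a log2 CPM of at least 4, the median log2 fold change was -0.045 in the distal chromosome 2 cluster, below 0 where that over all its regions was above, and -0.060 on chromosome 7. The density ratio of the proximal chromosome 2 cluster was 6.12 with that minimum, 5.19 with regions of at least 1000 bp and 5.13 between the receptor genes. Receptor genes with a region numbered 22 for the body alone and 301 within 10 kb. The share of members at a receptor gene was 33.8% within 5 kb, 4.13% in the body, 62.4% within 10 kb and 24.6% for protein-coding receptors. Alternatives chosen after seeing the data gave receptor bodies covered to 0.165% (log2 CPM of at least 4) and 0.507% (1000 bp), and a ratio of the share farther than 5 kb to that in bodies of 4.37 over all regions, 25.9 and 9.76 with these minimums. The positive share in the receptor span of the proximal chromosome 2 cluster was 23.3% and 21.2% with the same minimums. Leaving out chromosomes 11 and 16, also chosen after seeing the data, put the median at receptor genes outside the clusters at -0.052 instead of 0.022. It put that at olfactory signalling genes at -0.076 instead of 0.315, a change of sign that stayed within its wide limit. The difference from the rest of the chromosome ran from -0.011 to 0.016 in the distal chromosome 2 cluster and from -0.016 to 0.011 on chromosome 9. The cause of these shifts was not tested. No paired analysis was possible because the table holds no values of single libraries, and for the same reason leaving out replicates, DESeq2 and other count filters were not run. Depth limits the weak members most, since 59 lay below a log2 CPM of 2.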
